A study of Homo sapiens with 4 samples.

Results

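The core hepatocyte transcription factors HNF4A, FOXA1, FOXA2, FOXA3, CEBPA, CEBPB, ONECUT1 and PROX1 were examined in Huh7, an established human hepatocellular carcinoma line, after sorting on the surface protein CD133. Members were taken as every probe set that the platform annotation pairs with exactly 1 gene symbol, where that symbol is 1 of the 8 names. This gave 13 probe sets for 7 genes, of 41097 probe sets and 19775 genes with a single symbol. The annotation used here paired no probe set with HNF4A alone, so HNF4A was not analysed here. Flow cytometry gave a CD133+ and a CD133- population of the same line. Each was taken to be 1 array deposited once as RMA values and once as MAS5 signals, since the labels name no other difference between these forms. No repeat of the sort is mentioned in the labels. RMA values are on the log2 scale, MAS5 signals are linear, and differences are CD133+ minus CD133- on the log2 scale. Without replicates there is no error between sorts and no test, and all differences describe these 2 arrays.

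These factors form the network that sets and keeps hepatocyte identity. HNF4A is a nuclear receptor that drives a large share of liver-specific genes. The FOXA proteins are pioneer factors, able to bind DNA in closed chromatin in liver, gut, pancreas and lung. ONECUT1 (HNF6) acts in liver, bile duct and pancreas development, the C/EBP proteins are basic leucine zipper factors of metabolic and acute-phase genes, and PROX1 is a homeodomain factor and corepressor of early hepatoblasts.

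The sort and the cell type were checked on the same arrays. PROM1, which encodes CD133, had RMA values of 10.49 in CD133+ and 5.33 in CD133- cells. The hepatocyte products ALB and AFP were among the brightest genes in both populations, at 13.57 and 13.63 for ALB and at 14.01 and 13.98 for AFP. Of 8 blood cell markers with a probe set, 4 lay at or below 91.8 in both populations, the median over probe sets of the brighter MAS5 signal. Of 12 endothelial markers, 10 lay below it. Summed MAS5 signals were 13304 in CD133+ and 14048 in CD133- cells for the blood list, nearly all of it LYZ, and 2558 and 2237 for the endothelial list, mostly RELN. The 10 stromal markers summed to 3152 and 1831, a gap made mostly by COL1A2 and LUM. No marker had a signal of 0, which by MAS5 does not show that a marker was expressed. The part of such cells in the values below was not tested.

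Promoter sequence is shown for the member of largest difference, FOXA3, and for 3 genes of a list of known FOXA targets whose levels are given further on: ALB and AFP, which were level between the populations, and AGR2, which was not. Each is the 250 bases before the transcription start on the gene's own strand, from RefSeq on GRCh38.p14. FOXA3 lies at chr19:45864076-45864325 (plus strand), ALB at chr4:73404037-73404286 (plus), AFP at chr4:73435971-73436220 (plus) and AGR2 at chr7:16805000-16805249 (minus). Capitals mark letters that match a FOXA core (TGTTTAC, with G or A at the second base and A or G at the sixth) or a C/EBP core (TTGCNNAA) on either strand.
FOXA3: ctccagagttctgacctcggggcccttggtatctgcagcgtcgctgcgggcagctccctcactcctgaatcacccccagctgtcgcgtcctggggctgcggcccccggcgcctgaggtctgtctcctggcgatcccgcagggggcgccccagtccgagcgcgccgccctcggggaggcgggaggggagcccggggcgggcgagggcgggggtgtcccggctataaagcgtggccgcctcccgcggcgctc
ALB: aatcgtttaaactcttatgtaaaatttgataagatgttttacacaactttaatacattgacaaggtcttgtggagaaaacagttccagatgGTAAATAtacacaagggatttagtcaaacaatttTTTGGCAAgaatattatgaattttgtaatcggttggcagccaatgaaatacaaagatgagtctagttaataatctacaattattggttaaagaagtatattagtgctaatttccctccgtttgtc
AFP: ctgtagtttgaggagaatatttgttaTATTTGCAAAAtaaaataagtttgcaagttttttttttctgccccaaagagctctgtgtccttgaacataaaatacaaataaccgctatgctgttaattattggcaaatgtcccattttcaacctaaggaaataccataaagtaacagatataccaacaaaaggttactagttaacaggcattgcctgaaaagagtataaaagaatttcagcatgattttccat
AGR2: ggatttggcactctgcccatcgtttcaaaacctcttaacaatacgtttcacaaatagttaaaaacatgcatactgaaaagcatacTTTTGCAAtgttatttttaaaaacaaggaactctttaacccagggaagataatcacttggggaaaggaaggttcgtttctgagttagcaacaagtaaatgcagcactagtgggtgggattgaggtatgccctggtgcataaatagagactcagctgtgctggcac

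The FOXA3 window held neither core. ALB held a FOXA match 159 to 153 bases before the start and a C/EBP match 125 to 118 bases before it. In AFP the matches overlapped, FOXA at 224 to 218 and C/EBP at 221 to 214. AGR2 held a C/EBP match at 165 to 158 and no FOXA match. Over all 35116 RefSeq windows of this length, 10.6% held the FOXA core and 9.05% the C/EBP core. ONECUT letters (ATCGAT or ATCAAT, in 6.19% of windows) and HNF4 letters (CAAAGTCCA, in 0.325%) were searched on both strands as well and occurred in none of these 4 windows. Windows were found for 6 of the 8 members, and of these FOXA1 alone held the FOXA core, as TGTTTGC on the opposite strand. Of the 23 listed FOXA targets, 12 had a window and 8 of these held the FOXA core, in 9 of 17 windows. CPS1, higher in CD133+ cells by 2.33 in RMA, was among the 8, so the genes shown do not stand for the list. These matches describe letters and not binding.

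Among the core factors no gene differed by 2-fold between CD133+ and CD133- cells, by RMA or by MAS5. FOXA3 was 1.36-fold lower and ONECUT1 1.35-fold lower in CD133+ cells, and FOXA1 was 1.252-fold higher. FOXA2, CEBPA, CEBPB and PROX1 differed by less than 1.1-fold by RMA. Detection here means that the higher RMA value exceeded a floor of 4.86, set at the median over probe sets, and 12899 genes including all 7 members passed. Of these, 1.65% were at least 2-fold higher and 0.116% at least 2-fold lower by RMA, and by MAS5, with a floor of 91.8, the shares were 4.47% and 1.71%. A smaller limit was met when a gene was at least 25% brighter in 1 population than in the other. By RMA 8.69% of detected genes met it on the higher and 5.57% on the lower side, against 1 and 2 of the 7 members. By MAS5 it was met by 19.4% and 13.7%, against 2 and 1 members. The members' median difference was -0.09, and that of all detected genes was -0.01.

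**Figure D1:**
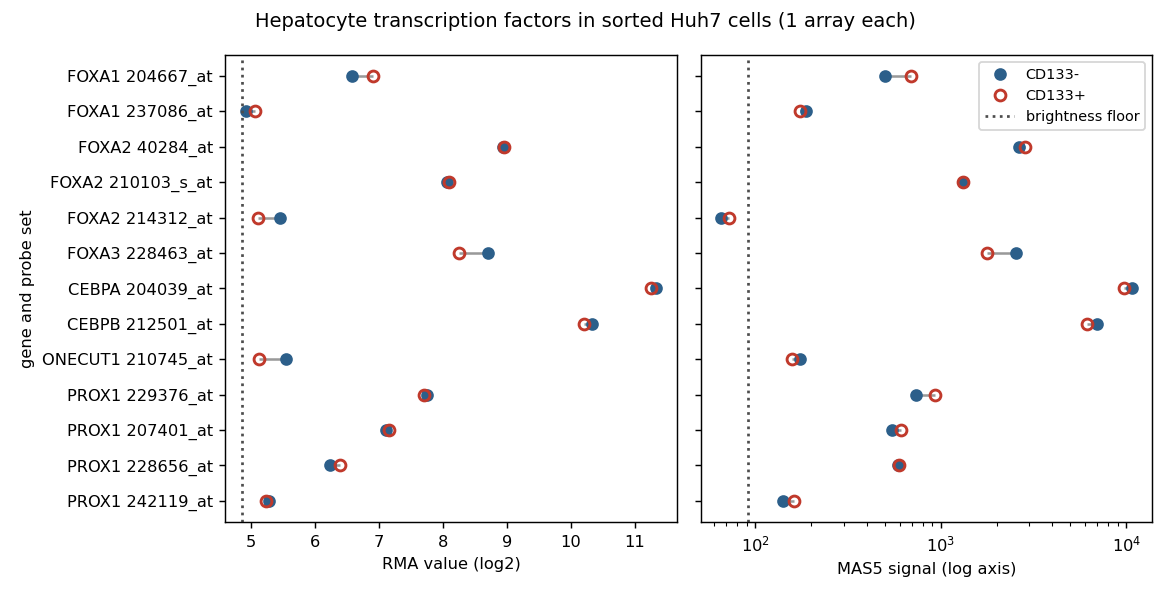
RMA values (log2, left) and MAS5 signals (log axis, right) of the 13 probe sets of 7 core factors in CD133- cells (filled blue) and CD133+ cells (open red), 1 array each, joined by a line. The dotted line is the brightness floor (RMA 4.86, MAS5 91.8), and the lines of FOXA3, ONECUT1 and the brighter FOXA1 probe set are among the longest in the RMA panel.

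FOXA3, the FOXA family member most abundant in adult liver, was read by a single probe set. Its RMA values were 8.26 in CD133+ and 8.70 in CD133- cells, and its MAS5 signals 1786 and 2534. The CD133+ array was therefore lower by both summaries, with differences of -0.44 (RMA) and -0.50 (MAS5). Only 2.15% of detected genes had a lower RMA difference. Among the 2064 detected genes whose mean RMA value lay within 0.5 of that of FOXA3, 4.99% differed by at least as much in either direction. For scale, probe sets of 1 gene that both lay above the floor disagreed by 0.24 (root mean square of the gap between their RMA differences, 16955 pairs). That spread is between probe sets on the same arrays and leaves out variation between sorts and cultures. How much of it is technical was not tested.

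FOXA1, which shares its forkhead DNA-binding domain with FOXA3, differed in the opposite direction. Its brighter probe set had RMA values of 6.91 in CD133+ and 6.58 in CD133- cells and MAS5 signals of 692 and 500. The difference of 0.324 just passed the limit of 0.322. The dimmer FOXA1 probe set was higher by 0.14 in RMA but had MAS5 signals of 174 and 187. Of detected genes within 0.5 of FOXA1 in brightness, 16.7% differed by at least as much.

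FOXA2, needed with FOXA1 for liver to form from foregut endoderm, was nearly level. Its brightest probe set gave RMA values of 8.96 and 8.93 in CD133+ and CD133- cells, and the next gave 8.09 and 8.06. Both differed by 0.03. The third differed by -0.35 in RMA, from 5.45 to 5.11, while its MAS5 signals of 71.9 and 65.8 lay below the MAS5 floor and ran the other way. The bright FOXA2 probe sets thus showed no difference beyond the probe set spread, and the dim one had no settled direction.

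ONECUT1 was dim and its size depended on the summary. RMA gave 5.12 in CD133+ and 5.55 in CD133- cells, a difference of -0.43. MAS5 signals were 158 and 174, a difference of -0.14. Both were lower in CD133+ cells, but by MAS5 ONECUT1 did not reach the 25% limit. Of detected genes of like brightness, 8.80% differed by at least as much by RMA.

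CEBPA, a factor of mature hepatocyte metabolism and of growth arrest, was the brightest core factor by its own probe set and close to level. Its RMA values were 11.24 in CD133+ and 11.33 in CD133- cells, with MAS5 signals of 9766 and 10738. CEBPB, which responds to inflammatory signals, had RMA values of 10.21 and 10.33 and MAS5 signals of 6134 and 6952. Both were slightly lower on the CD133+ array, with RMA differences of -0.09 and -0.12. Of detected genes of like brightness, 49.8% and 47.0% differed by at least as much.

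PROX1 was measured by 4 probe sets, none of which reached the 25% limit by RMA. The brightest had RMA values of 7.70 in CD133+ and 7.75 in CD133- cells. The others differed by 0.05, 0.16 and -0.04. By MAS5 all 4 were higher in CD133+ cells, and the brightest had signals of 935 and 733, 1.28-fold higher. PROX1 was the only member gene whose direction differed between the summaries. Over all 13 member probe sets, 9 had the same direction by both summaries and 4 did not.

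**Figure D2:**
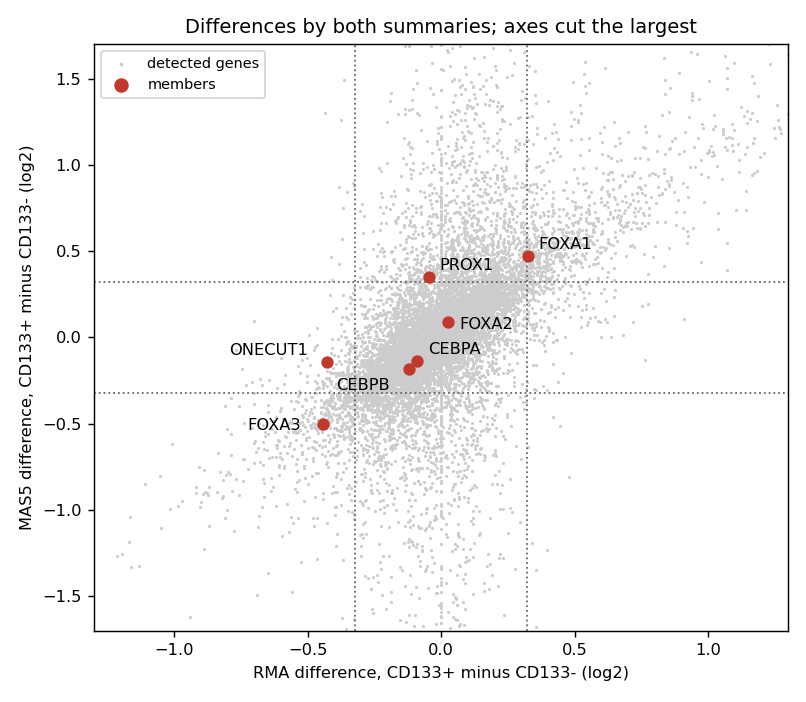
RMA difference (horizontal) against MAS5 difference (vertical) of each detected gene (grey) and of the 7 core factors (red), CD133+ minus CD133- on the log2 scale, 1 probe set a gene, with dotted lines at the 25% limit. FOXA3 lies beyond both lower lines and FOXA1 beyond both upper lines, ONECUT1 is beyond the RMA line only and PROX1 beyond the MAS5 line only.

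The pair of RMA and MAS5 differences most like that of FOXA3 belonged to AK1, RRBP1 and EML6, with RMA differences of -0.45, -0.45 and -0.44. Likeness was the Euclidean distance between the pairs over 2 arrays, and 111 detected genes lay within 0.1, so the match is not selective.

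Paralogs of the core factors were mostly level. Of 8 detected genes, CEBPD alone met the 25% limit by RMA, as higher, beside 8.69% of all detected genes. Without probe sets ending in _x_at or _s_at 0 genes met it, since the CEBPD probe set is one of these. By MAS5 2 genes met it as higher, CEBPD and HNF4G, beside 19.4% of all detected genes. HNF4G, the paralog of HNF4A, had MAS5 signals of 831 in CD133+ and 638 in CD133- cells, with an RMA difference of 0.14. CEBPD, an acute-phase C/EBP factor, read 9.93 in CD133+ and 9.34 in CD133- cells by RMA, with MAS5 signals of 4729 and 2923, which made it 1.50-fold higher. A dimmer probe set of it, under the floor, differed by 0.12. Within the C/EBP family CEBPD was thus higher while CEBPA and CEBPB were not. The list median was 0.05.

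Among other transcription factors of the liver network, 6 of 21 detected genes met the 25% limit as lower and 1 as higher, beside 5.57% and 8.69% of all detected genes. The list median was -0.08 by RMA and 0.02 by MAS5. FOXO1, the insulin-regulated forkhead factor of gluconeogenesis, had RMA values of 6.69 in CD133+ and 7.35 in CD133- cells. HHEX, a homeodomain factor of early liver and bile duct development, had 9.44 and 10.03, and both of its probe sets were lower, at differences of -0.59 and -0.51. HLF, a circadian PAR bZIP factor, had 7.08 and 7.62, with all 3 probe sets lower. These 3 genes were each between 1.46-fold and 1.57-fold lower by RMA, and lower by MAS5 on the same probe sets. NR5A2, a nuclear receptor of bile acid and cholesterol metabolism that PROX1 is known to restrain, was 1.27-fold higher on its brightest probe set, at 7.47 and 7.13. A further pair of detected NR5A2 probe sets had differences of 0.46 and 0.16, and with the mean or the median over probe sets 0 genes of the list met the limit as higher.

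Among 14 detected coactivators and corepressors of these factors, 1 met the 25% limit as lower and 0 as higher, and the median was -0.06. The shares over all detected genes were 5.57% and 8.69%. TLE1, a Groucho corepressor, had a difference of -0.36 in RMA and -0.10 in MAS5 on its brightest probe set. Its second probe set differed by 0.04. The remaining ones, all above the floor, differed by -0.30, -0.09 and -0.24, and each was lower by MAS5 too. PPARGC1A, a coactivator of HNF4A in gluconeogenesis, was level at 5.58 on both arrays.

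**Figure D3:**
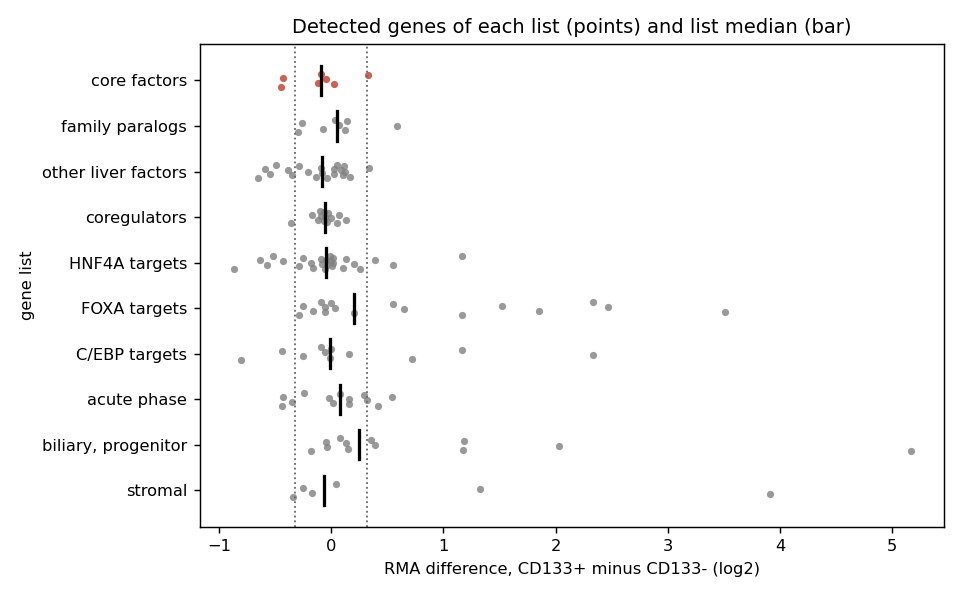
RMA differences (log2, CD133+ minus CD133-) of the detected genes of 10 lists, a point a gene, with the list median as a black bar and dotted lines at the 25% limit. The core factors (red) lie between -0.44 and 0.32, while the FOXA target list reaches 3.50 as measured, for AGR3, whose CD133- value lies under the floor.

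As measured, the listed targets of the FOXA factors ranged more widely in difference than the factors. Of 17 detected genes known to be regulated by FOXA proteins, 8 met the 25% limit as higher in CD133+ cells and 0 as lower, where 8.69% and 5.57% of all detected genes did. AGR3, PCK1 and NKX2-1 passed the floor through the CD133+ array only, so the share of detected genes is not read as a result. As measured, 6 were at least 2-fold higher and the list median was 0.20. With values under the floor set to the floor, 5 were, all but PCK1, and the median was 0.13. The list was written when AGR3, CPS1 and PCK1 were already known to be higher. It is therefore no independent evidence of a direction or of a wider range. AGR3, a disulfide isomerase of secretory epithelia, had RMA values of 7.02 in CD133+ and 3.52 in CD133- cells and was at least 4.48-fold higher against the floor. Its neighbour in function AGR2 had 10.85 and 8.39, and MAS5 signals of 8550 and 1368, 6.25-fold higher. CPS1, the entry enzyme of the urea cycle, had 7.77 and 5.44, and a second probe set was at least 3.89-fold higher against the floor.

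Of the 8 higher FOXA targets, 5 were genes of gut secretion, a grouping made after the values were seen. The trefoil factor genes, which encode peptides secreted with mucus, had RMA values of 10.23 in CD133+ and 8.38 in CD133- cells for TFF1, 8.68 and 7.16 for TFF3, and 9.75 and 9.11 for TFF2. With AGR2 and AGR3, all 5 were higher, with a median of 1.85, although TFF2 differed by only 0.24 in MAS5. The 11 detected liver genes of the same list had a median of -0.05, and 3 of them (CPS1, PCK1 and TTR) met the 25% limit as higher. ALB, AFP, APOA1 and SERPINA1 differed by -0.05, 0.03, -0.06 and -0.10. TTR, the thyroid hormone carrier, differed by 0.55, with 12.78 and 12.23. When probe sets ending in _x_at or _s_at, which can take up related transcripts, were left out, 3 genes of the list met the 25% limit as lower: ALB and SERPINA1, at -0.42 and -0.44, and TF at -0.75, each then read by a dimmer probe set.

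**Figure D4:**
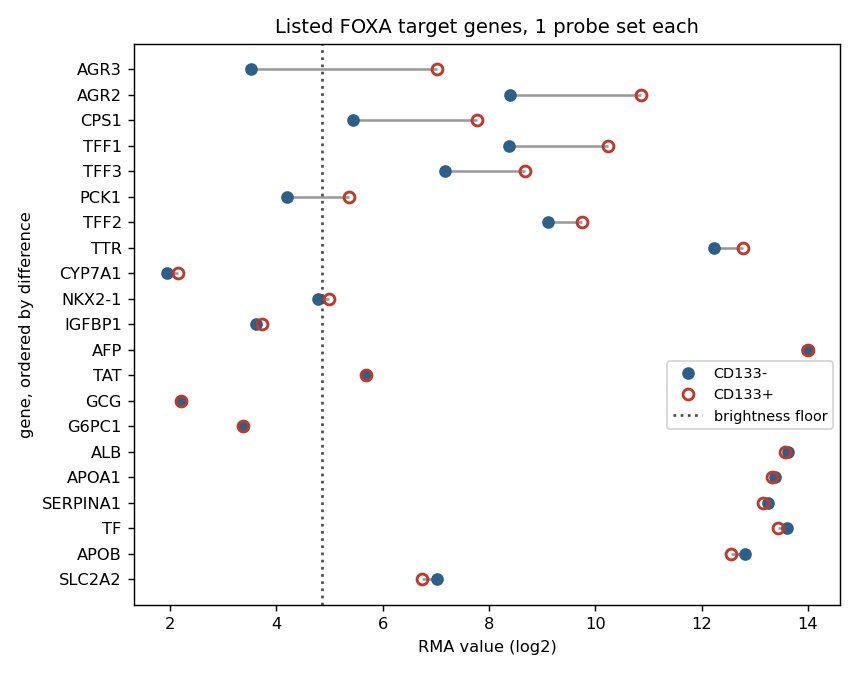
RMA values (log2) of the listed FOXA target genes in CD133- (filled blue) and CD133+ cells (open red), 1 probe set a gene, ordered by difference, with the brightness floor of 4.86 dotted. The longest lines belong to AGR3, AGR2, CPS1, TFF1 and TFF3, and ALB, AFP, APOA1 and SERPINA1 lie near the upper end of the scale with values that nearly coincide.

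HNF4A targets were read although HNF4A itself was not. Of 26 detected genes, 3 met the 25% limit as higher and 5 as lower, with a median of -0.04. Of all detected genes 8.69% and 5.57% met it. Without probe sets ending in _x_at or _s_at, 1 met it as higher and 7 as lower. TF, SERPINA1 and CYP3A4 were then lower on dimmer probe sets, and APOM had no probe set left. The CYP3A4 probe set differed by -0.42 in RMA but 0.10 in MAS5. OTC, a urea cycle enzyme, was 1.83-fold lower, with RMA values of 6.37 in CD133+ and 7.24 in CD133- cells. The coagulation factor gene F12 was 1.55-fold lower, at 8.83 and 9.46, and the angiotensinogen gene AGT 1.49-fold lower, at 11.95 and 12.53. PCK1, which commits carbon to gluconeogenesis, read 5.36 and 4.19 and was at least 1.42-fold higher against the floor. It passed the floor through the CD133+ array only, and was already known to be higher when the list was written. APOC3, an apolipoprotein of triglyceride-rich particles, was 1.31-fold higher.

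C/EBP alpha targets went both ways, 3 of 11 detected genes meeting the 25% limit as higher and 2 as lower, with a median of -0.01. Of all detected genes 8.69% and 5.57% met it. CPS1 and PCK1, already known to be higher when the lists were written, are on this list too. PCK1 passed the floor through the CD133+ array only, so the share of detected genes is not read as a result. TDO2, which degrades tryptophan, was 1.64-fold higher, at 7.47 and 6.75. ARG1, the last enzyme of the urea cycle, was 1.75-fold lower, at 9.12 and 9.93, and 2 further probe sets were at least 1.74-fold and 1.61-fold lower against the floor. CPS1 on the one side and OTC and ARG1 on the other thus differed in opposite directions within the urea cycle.

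Acute-phase and related genes, some of them known targets of C/EBP beta, had 2 of 13 detected members past the 25% limit as higher and 3 as lower. Their median was 0.08. The shares over all detected genes were 8.69% and 5.57%. The protease inhibitor gene SERPINA3 and the copper carrier gene CP were higher by 0.54 and 0.42 in RMA. By MAS5 the probe set that stood for each gene was 1.24-fold higher, short of the limit. By MAS5 1 gene of the list met the limit as higher. CP was uneven across its dimmer detected probe sets, which were higher by 0.26, 0.01 and 1.33 in RMA. Their MAS5 differences were 0.26, 0.50 and 1.37. The last of these, which ends in _s_at, was at least 2.22-fold higher by RMA against the floor. The haptoglobin gene HP, the lipopolysaccharide-binding protein gene LBP and the hepcidin gene HAMP had differences of -0.43, -0.43 and -0.35. Of the ONECUT1 target list only 4 genes were detected, namely FOXA2, FOXA3, TTR and PCK1, with a median of 0.29, or 0.26 with PCK1 in CD133- cells set to the floor.

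Bile duct and progenitor markers, which share the FOXA and ONECUT factors with hepatocytes, had 6 of 12 detected members past the 25% limit as higher and 0 as lower, and 3 as higher without probe sets ending in _x_at or _s_at. PROM1, EPCAM and MUC1 then had no probe set left. Of all detected genes 8.69% met the 25% limit as higher and 5.57% as lower, and CFTR passed the floor through the CD133+ array only. The list holds the sort marker PROM1, whose difference the sort fixed, so the share of detected genes is not read as a result. MUC1, among the 6, had MAS5 signals of 23.4 in CD133+ and 55.0 in CD133- cells. Both lay below the MAS5 floor and ran the other way. KRT19, a keratin of bile ducts, had RMA values of 10.54 in CD133+ and 8.52 in CD133- cells, and EPCAM, an epithelial adhesion protein, 11.21 and 10.03. SOX9, the biliary transcription factor, was level at 9.73 and 9.76. In the stromal list 2 of 6 detected genes met the limit as higher and 1 as lower, beside the same shares over all detected genes. LUM, which passed the floor through the CD133+ array only, was at least 2.33-fold higher. COL1A2 was 2.51-fold higher and RGS5 1.27-fold lower. COL1A1, DES and PDGFRB differed by 0.04, -0.17 and -0.25. Without probe sets ending in _x_at or _s_at, 0 stromal genes met the limit in either direction, and the second LUM probe set, under the floor, differed by 0.11. COL1A2 then had no probe set above the floor, since its bright ones, which differed by 1.33 and 1.31, end in _s_at. In the endothelial list, relevant because PROX1 also marks lymphatic endothelium, the detected genes ranged from -0.10 (FLT4) to 0.31 (CCL21), and in the blood list from -0.25 (CD14) to 0.14 as measured (CSF1R, at least 1.07-fold higher against the floor).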

How the data were processed

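Total RNA of the sorted populations was labelled with biotin and hybridised to 1 array each. The deposited MAS5 columns hold a linear intensity for each probe set, with a mean of 500.1 on both arrays after trimming 2% at each end, per the deposited values. The deposited RMA columns hold log2 values, background-corrected and quantile-normalized as RMA does, per the labels. The submitters' processing notes name MAS5, RMA and GCOS with no version, and which arrays were normalized together is not given in the sources used here. Both scalings hide a global shift between populations.

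Of 54675 probe sets, 41097 had 1 symbol, 1801 several and 11777 none. Symbols were updated by Entrez number to RefSeq of GRCh38.p14 (41043 matched). The probe set of highest mean RMA value stood for a gene. Calls are folds of at least 2, or 25% more in 1 population than in the other, with the floors given above. Work was done in Python 3.11.15 with pandas 2.3.3, NumPy 2.4.6 and Matplotlib 3.10.9. The 2-fold counts were tested on simulated data whose noise was smaller than the probe set spread. Calls at the 25% limit were not simulated. Members and the 12 other lists were chosen with earlier results of these data known. Named genes are all members, PROM1, and of each list at most 3 genes a direction that met the 25% limit by RMA with the same direction by MAS5, or else the extremes. Further genes were named for their role after their values were seen. Alternatives were MAS5, mean or median over probe sets, no _x_at or _s_at probe sets, centring, other floors, and values under the floor set to it. The number of arrays limits the precision.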

Additional observations from a re-analysis of the deposited data

How the results depend on the processing

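The count of members at 2-fold stayed at 0 in all 8 alternatives, and the members' median lay between -0.14 (MAS5) and -0.07 (floor at the 75th percentile). FOXA3 stayed beyond the 25% limit in each of them, but only MAS5 could change its value. Its single probe set does not end in _x_at or _s_at and lies above every floor used. Of members past the 25% limit as higher, MAS5 gave 2 (FOXA1 and PROX1), and the mean and the median over probe sets gave 0 each, FOXA1 then differing by 0.23. Of members past it as lower, MAS5 gave 1, with ONECUT1 at -0.14, and the floor at the 75th percentile gave 1, since ONECUT1 lies below it. PROX1 differed by 0.35 by MAS5. Among list medians, the ONECUT1 targets moved from 0.29 to 0.027 with that floor and to 0.027 without _x_at and _s_at probe sets, and the FOXA targets from 0.20 to 0.55 without these. The FOXA target median was 0.04 with the mean and with the median over probe sets. The stromal median moved from -0.07 to 0.68 with that floor, and the blood median from 0.00 to -0.24 by MAS5, and the other 91 of 96 list medians moved by less than the probe set spread. Of 192 counts of list genes past the limit, 30 moved by more than the ratio of 3 to 2. Over all detected genes MAS5 gave 548 higher and 209 lower at 2-fold, against 213 and 15 by RMA, and 2382 and 1682 at the 25% limit, against 1121 and 718. The floor at the 75th percentile gave 117 higher at 2-fold, and 629 higher and 406 lower at the 25% limit. Setting values under the floor to the floor, an alternative chosen after seeing the data, left the members' values as they were. Centring changed nothing, the median RMA difference over probe sets being 0. The cause of these moves was not tested beyond the fewer genes that a higher floor leaves. No paired analysis was possible because each population has 1 array, and no replicate could be left out.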

Other observations

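Noncoding transcripts beside the core factors, chosen after their values were seen, were read by 1 probe set each. LINC00261, the RefSeq neighbour of FOXA2 with 0 genes between them, had RMA values of 10.21 in CD133+ and 10.45 in CD133- cells, a difference of -0.24, and MAS5 signals of 5194 and 6234, while the bright FOXA2 probe sets differed by 0.03. CEBPA-DT, the neighbour of CEBPA, had 6.91 and 7.01, a difference of -0.10 beside -0.09 for CEBPA. HNF4A-AS1 and PROX1-AS1, which overlap their host genes in RefSeq, lay below the RMA floor in both populations.

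The bright probe sets of abundant liver products were close to level, and the dimmer ones were mostly lower. Besides the brightest, ALB had bright probe sets at 0.05 and -0.14, APOA1 1 at -0.03, SERPINA1 1 at -0.12 and TF 1 at -0.16. ALB, APOA1, APOB, FABP1, SERPINA1 and TF had a brightest probe set above an RMA value of 12 and another, above the floor, under 10. In 5 of these 6 genes, all but APOB, the dimmer probe set had the lower difference: -0.42 against -0.05 for ALB, -0.31 against -0.06 for APOA1, -0.17 against -0.01 for FABP1, -0.44 against -0.10 for SERPINA1 and -0.75 against -0.16 for TF. The same order held in 55 of 67 other genes with such probe sets, among them ribosomal protein genes, whose medians were -0.02 for the brightest and -0.17 for the dimmer probe sets. The pattern was noticed in these data and has no replicate check.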
